A study of Mus musculus with 12 samples.

Results

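Neurotrophins are small secreted growth factors that keep neurons alive and adjust their synapses, and the genes described here encode 3 of them and their receptors. The gene set comprised Bdnf (brain-derived neurotrophic factor), Ntf3 (neurotrophin-3), Ntf5 (neurotrophin-4), Ntrk2 and Ntrk3 (the receptor kinases TrkB and TrkC), Ngfr (the receptor p75) and Sort1 (sortilin). Members were all probe sets, the groups of short oligonucleotides that read 1 transcript region, whose platform annotation gives 1 of these 7 symbols and no other gene. The rule found 25 of 45037 probe sets and 6 of 18194 genes: 2 of Bdnf, 1 of Ntf5, 8 of Ntrk2, 8 of Ntrk3, 3 of Ngfr and 3 of Sort1. Ntf3 has no such probe set here and was not analysed. Probe sets of a gene are counted below in order of their identifier.

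RNA was measured on 12 Affymetrix arrays, 3 in each of 4 groups: APPsα-DM hippocampus, APLP2-KO hippocampus, APPsα-DM prefrontal cortex and APLP2-KO prefrontal cortex. All mice were females of 38 to 40 weeks, back-crossed for 6 generations to C57BL/6. Both genotypes carried the deletion of APLP2, an APP family member (APP is the amyloid precursor protein), so that APLP2-KO served as the control. APPsα-DM mice carried in addition, on both App alleles, the APPα allele, which as generally described leaves only the secreted ectodomain of APP. No wild type was analysed here, so the effect of the APLP2 deletion cannot be read from these arrays. The series gives 3 mice per genotype for 6 arrays, so hippocampus and cortex arrays come from the same mice.

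BDNF and neurotrophin-4 bind TrkB, and neurotrophin-3 binds mainly TrkC; both receptors are tyrosine kinases that signal through the RAS and MAP kinase, PI3 kinase and phospholipase C routes. Every neurotrophin is made as a proneurotrophin, and the uncleaved form binds p75 together with sortilin. Ntrk2 and Ntrk3 each also give truncated receptors without the kinase. In rodent brain the hippocampus is a main site of Bdnf RNA, and Bdnf transcription is switched on by neuronal activity from several alternative promoters.

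Because Bdnf carried the largest difference among the members, 2 of its promoters are shown. The RefSeq table (GRCm38.p6) holds 7 start sites of Bdnf on the plus strand of chromosome 2, 2 of Ntf3, 1 of Ntrk2 and 1 of Ngfr, which makes 4 genes of 7 matched. The 250 bases before each start site were searched on both strands for the cyclic AMP response element TGACGTCA, its variant TCACGTCA, their 5-base core TGACG, the E-box CACGTG and the EGR site GCGTGGGCG. Among the Bdnf windows, the only matches were the variant TCACGTCA before start site 3, whose last base lies 31 bases before the start site, and the core on the other strand inside that same match. The window before start site 1 held no match and is shown beside it; capitals mark the match.
Bdnf start site 3, chr2:109692186-109692435, plus strand: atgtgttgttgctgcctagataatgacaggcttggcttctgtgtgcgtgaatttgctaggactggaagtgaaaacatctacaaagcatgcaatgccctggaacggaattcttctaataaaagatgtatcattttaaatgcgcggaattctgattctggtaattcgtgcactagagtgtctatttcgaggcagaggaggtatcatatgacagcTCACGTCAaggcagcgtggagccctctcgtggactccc
Bdnf start site 1, chr2:109674450-109674699, plus strand: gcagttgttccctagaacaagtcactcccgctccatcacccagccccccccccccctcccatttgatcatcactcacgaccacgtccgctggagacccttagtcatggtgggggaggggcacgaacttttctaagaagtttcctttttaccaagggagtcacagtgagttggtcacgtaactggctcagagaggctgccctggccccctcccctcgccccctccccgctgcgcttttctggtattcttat
The variant occurs in 0.350% of 32851 such windows of all genes, TGACGTCA in 1.55%, the core in 17.8%, CACGTG in 6.02% and the EGR site in 0.536%. Among the other members' windows, the only match was CACGTG before start site 1 of Ntf3. A match is a description of the letters, and no array value assigns the Bdnf signal to a start site.

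The labels were checked before the comparisons. The tissue markers were chosen with earlier results of these data known, so they are no independent check. The brightest App probe set averaged 11.55 ± 0.10 in APPsα-DM hippocampus against 13.46 ± 0.02 in APLP2-KO hippocampus, and 11.80 ± 0.06 in APPsα-DM cortex against 13.46 ± 0.07 in APLP2-KO cortex (log2 signal, mean ± SD, n = 3 each), with no overlap of genotypes. Of 10 marker genes of hippocampal CA neurons, 9 were higher in hippocampus than in cortex in both genotypes, as were 6 (APPsα-DM) and 7 (APLP2-KO) of 10 dentate granule cell markers. Dsp, counted in both of these lists, had the largest difference in each, 5.02 in APPsα-DM and 5.36 in APLP2-KO. Of 11 cortical neuron markers, 7 were lower in hippocampus in both genotypes and 1, Nr4a2, was higher. All 10 striatal markers were lower in hippocampus in both genotypes, with median log2 differences of -2.28 in APPsα-DM and -1.95 in APLP2-KO; whether striatal tissue in the cortex pieces or cortical expression gave this was not tested. Choroid plexus RNA varied from array to array, with Ttr, its main marker, at 14.34, 11.83 and 14.36 in APPsα-DM hippocampus, 10.63, 13.43 and 14.21 in APLP2-KO hippocampus, 8.20, 14.18 and 9.42 in APPsα-DM cortex and 9.31, 8.69 and 14.03 in APLP2-KO cortex. The cortex arrays with Ttr above 12, APPsα-DM cortex 2 and APLP2-KO cortex 3, stood apart, and tissue results are also given without them.

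Both Bdnf probe sets were higher in hippocampus than in cortex, Ntrk3 was higher at some of its 8 probe sets, and Ntrk2 was higher or lower depending on the probe set. Of the 25 probe sets, 9 passed limma's test at an adjusted p of 0.05 in APPsα-DM mice, 6 of them higher and 3 lower in hippocampus, where 10.6% of all probe sets passed (5.21% higher, 5.42% lower). In APLP2-KO mice 9 passed too, again 6 higher and 3 lower, where 12.6% of all probe sets passed (5.62% higher, 6.98% lower). The shares of all probe sets given here include many dim ones, while 18 of the 25 had a group mean of at least 6. With only probe sets of that level tested, 5059 of 22654 passed in APPsα-DM and 6194 of 22654 in APLP2-KO, larger shares than those over all probe sets. Among the 18 members, the 9 calls of each genotype stayed. Ntrk3 probe set 3 was added in APPsα-DM (limma adjusted p = 0.0488). Ntrk2 and Ntrk3 hold 8 probe sets each, so the 25 are not independent. With the brightest probe set per gene, 2 of the 6 genes passed as higher and 1 as lower in each genotype. Over all genes taken this way, 6.59% passed as higher and 7.34% as lower in APPsα-DM. In APLP2-KO these shares were 6.78% and 9.70%. Passing in both genotypes were 8 probe sets: Bdnf 1 and 2, Ntrk2 3, 4, 5 and 8, and Ntrk3 1 and 5; over all probe sets 8.31% did so. The median log2 difference over the 25 was 0.19 in APPsα-DM and 0.11 in APLP2-KO, against -0.015 and 0.007 over all probe sets. At an unadjusted p of 0.05, 14 passed in APPsα-DM (22.9% of all probe sets did) and 10 in APLP2-KO (24.6%). The arrays of the tissues did not overlap for 8 higher and 4 lower probe sets in APPsα-DM, where 27.4% of all probe sets did not overlap, and for 11 higher and 3 lower in APLP2-KO, where 30.2% did not. When both Ttr-rich cortex arrays were left out, 7 member probe sets passed in each genotype. Calls over all 45037 probe sets then fell too, to 3621 in APPsα-DM and 4899 in APLP2-KO, from 4789 and 5672. Since each array reads a piece of tissue, fewer cells of a type cannot be told apart from less RNA per cell in any of these differences.

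**Figure D1:**
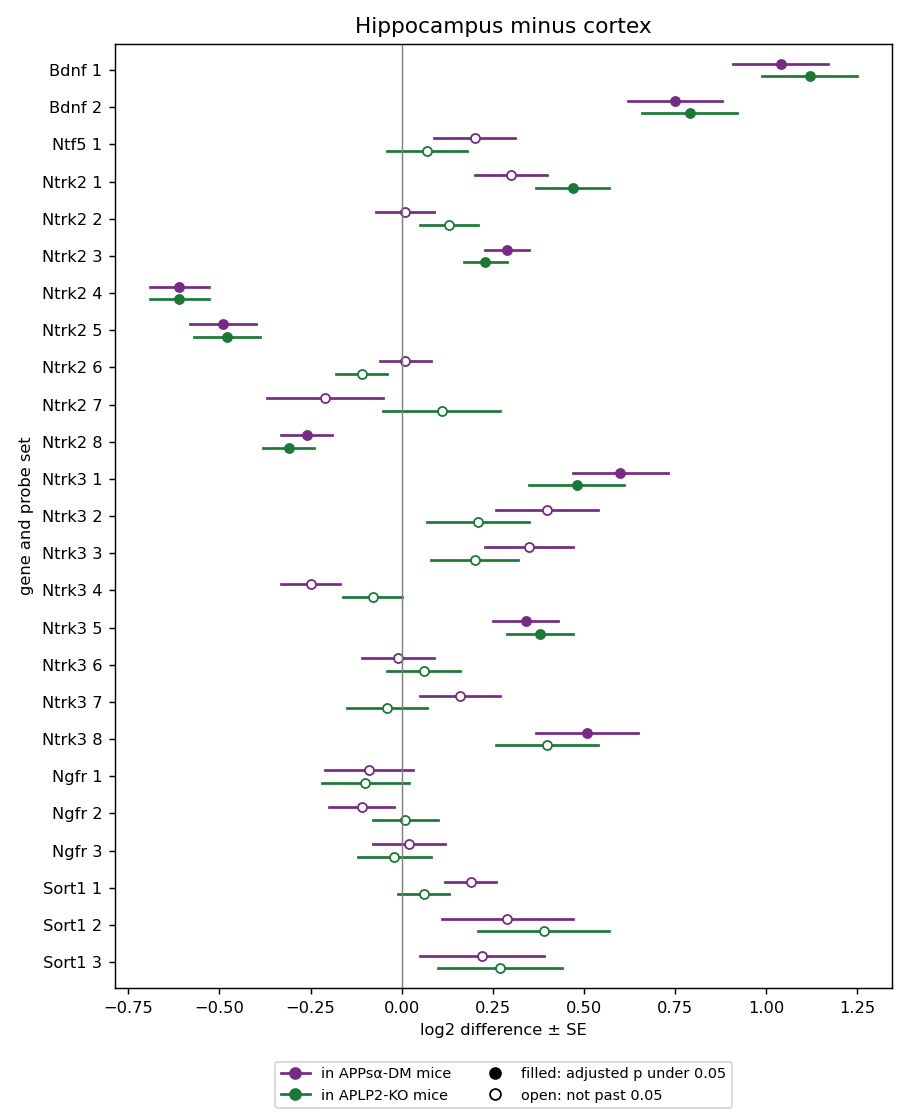
Log2 difference, hippocampus minus cortex, of the 25 probe sets in APPsα-DM and APLP2-KO mice, with bars of ± SE; filled points passed an adjusted p of 0.05. Both Bdnf probe sets lie far right of 0 in both genotypes, while Ntrk2 probe sets 4, 5 and 8 lie left of 0 and Ntrk2 probe set 3 right of it.

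Among the ligands, Bdnf, which encodes the main TrkB ligand of the adult forebrain, had the higher signal in hippocampus in both genotypes. Bdnf probe set 1 read 9.15, 9.55 and 9.24 in APPsα-DM hippocampus against 8.11, 8.45 and 8.25 in APPsα-DM cortex. It read 8.98, 8.94 and 9.32 in APLP2-KO hippocampus against 7.84, 8.13 and 7.93 in APLP2-KO cortex. Every hippocampus array lay above every cortex array. The difference was 1.04 ± 0.13 (SE) on the log2 scale in APPsα-DM, or 2.06-fold (limma adjusted p = 0.000221), and 1.12 ± 0.13 in APLP2-KO, or 2.17-fold (limma adjusted p = 0.000109).

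Bdnf probe set 2, which the annotation traces to the same source sequence, moved the same way. It read 8.35, 8.85 and 8.61 in APPsα-DM hippocampus against 7.78, 8.10 and 7.67 in APPsα-DM cortex, and 8.45, 8.45 and 8.64 in APLP2-KO hippocampus against 7.75, 7.83 and 7.60 in APLP2-KO cortex. The tissues did not overlap in either genotype. The difference was 0.75 ± 0.13 in APPsα-DM (1.68-fold, limma adjusted p = 0.00255) and 0.79 ± 0.13 in APLP2-KO (1.72-fold, limma adjusted p = 0.00159).

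Bdnf probe sets 1 and 2 kept their calls under all 15 alternatives tried in each genotype, with probe set 1 between 0.93 and 1.13 in APPsα-DM and between 1.00 and 1.20 in APLP2-KO. Without the Ttr-rich cortex arrays, the difference of Bdnf probe set 1 was 1.13 in APPsα-DM and 1.10 in APLP2-KO. CA neurons and dentate granule cells are both known to make Bdnf RNA, and most of their markers were higher in hippocampus too. All 10 CA markers were above 0, with medians of 1.09 in APPsα-DM and 1.17 in APLP2-KO. Of the 10 dentate markers, 9 were above 0 in APPsα-DM and 7 in APLP2-KO, and Pdzd2 was at -0.57 and -0.59. The mean of the 10 centred dentate markers was 0.85 to 1.09 in APPsα-DM hippocampus and 0.75 to 1.15 in APLP2-KO hippocampus. In cortex it was -1.03 to -0.74 in APPsα-DM and -1.05 to -0.88 in APLP2-KO. All 10 striatal markers were lower in hippocampus, with medians of -2.28 in APPsα-DM and -1.95 in APLP2-KO. The part of any of these cells in the Bdnf difference was not tested.

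Ntf5, which encodes the other TrkB ligand, was dim on every array, between 2.91 and 3.36. It averaged 3.29 ± 0.03 in APPsα-DM hippocampus, 3.24 ± 0.08 in APLP2-KO hippocampus, 3.09 ± 0.21 in APPsα-DM cortex and 3.17 ± 0.17 in APLP2-KO cortex (SD, n = 3 each). The tissue differences of 0.20 in APPsα-DM and 0.07 in APLP2-KO did not pass (limma adjusted p = 0.305 and 0.772), and at this signal a change in Ntf5 RNA may not be visible.

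**Figure D2:**
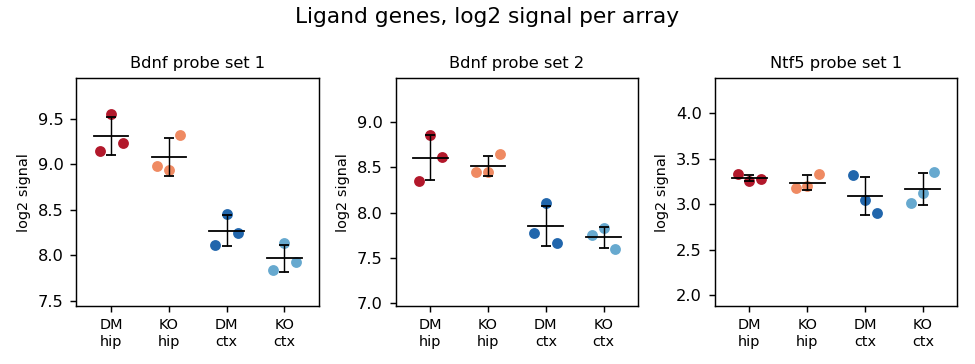
Log2 signal on each of the 12 arrays for both Bdnf probe sets and the Ntf5 probe set, by group (hip, hippocampus; ctx, cortex; DM, APPsα-DM; KO, APLP2-KO); lines are means and bars the SD of 3 arrays. All hippocampus points of Bdnf lie above all cortex points, and Ntf5 stays between 2.91 and 3.36.

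Ntrk2, which encodes the BDNF receptor TrkB, did not move as 1 unit. Probe sets 4, 5 and 8 fell in hippocampus and probe set 3 rose, in both genotypes. Probe set 4 read 9.91, 10.02 and 10.01 in APPsα-DM hippocampus against 10.52, 10.63 and 10.62 in APPsα-DM cortex, and 9.89, 9.84 and 9.86 in APLP2-KO hippocampus against 10.57, 10.55 and 10.30 in APLP2-KO cortex. All 6 hippocampus arrays lay below all 6 cortex arrays. The difference was -0.61 ± 0.08 in both genotypes, a 1.53-fold lower signal (limma adjusted p = 0.000238 in APPsα-DM and 0.000195 in APLP2-KO).

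Ntrk2 probe set 5 followed probe set 4. It read 9.73, 9.95 and 9.96 in APPsα-DM hippocampus against 10.38, 10.44 and 10.29 in APPsα-DM cortex, and 9.77, 9.84 and 9.82 in APLP2-KO hippocampus against 10.36, 10.39 and 10.14 in APLP2-KO cortex. The tissues did not overlap. The difference was -0.49 ± 0.09 in APPsα-DM and -0.48 ± 0.09 in APLP2-KO, 1.40-fold lower in both (limma adjusted p = 0.00245 and 0.00217). Probe sets 4 and 5 kept their calls under all 15 alternatives in each genotype.

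Ntrk2 probe set 8 fell less, and its call was less firm. It read 10.83, 10.94 and 10.87 in APPsα-DM hippocampus against 11.22, 11.04 and 11.15 in APPsα-DM cortex, and 10.80, 10.79 and 10.81 in APLP2-KO hippocampus against 11.16, 11.18 and 11.00 in APLP2-KO cortex, with no overlap. The difference was -0.26 ± 0.07 in APPsα-DM (limma adjusted p = 0.0391) and -0.31 ± 0.07 in APLP2-KO (limma adjusted p = 0.0117). In APPsα-DM the call ended without cortex 1 (adjusted p = 0.140), cortex 3 (0.0946), hippocampus 1 (0.121) or hippocampus 3 (0.118). It also ended there with the replicate number as a block (0.0652), with only the 6 arrays compared (0.0947) and with the choroid plexus score as a covariate, where the difference was -0.18 (adjusted p = 0.165). It ended in APLP2-KO without cortex 2 (adjusted p = 0.0543).

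Ntrk2 probe set 3 went the other way. It read 10.13, 10.29 and 10.20 in APPsα-DM hippocampus against 9.90, 9.90 and 9.96 in APPsα-DM cortex, and 10.19, 10.18 and 10.19 in APLP2-KO hippocampus against 10.00, 9.95 and 9.92 in APLP2-KO cortex. Again no hippocampus array overlapped a cortex array, now on the upper side. The difference was 0.29 ± 0.06 in APPsα-DM (1.22-fold, limma adjusted p = 0.00809) and 0.23 ± 0.06 in APLP2-KO (1.17-fold, limma adjusted p = 0.0256). The APPsα-DM call stood under all 15 alternatives. The APLP2-KO call stood under 6 of 15: leaving out any 1 of APLP2-KO hippocampus 1, 2 or 3 or cortex 2 or 3 gave adjusted p of 0.0642 to 0.0846, and leaving out the Ttr-rich cortex arrays gave 0.0897. The replicate number as a block gave 0.0501, only the 6 arrays compared 0.0565 and median centring 0.0605.

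Ntrk2 probe set 1 passed in 1 genotype. In APPsα-DM it read 7.05, 6.80 and 7.11 in hippocampus against 6.69, 6.50 and 6.87 in cortex, where the groups overlapped and the difference of 0.30 ± 0.10 did not pass (limma adjusted p = 0.0916). In APLP2-KO it read 7.17, 7.05 and 7.10 in hippocampus against 6.75, 6.57 and 6.61 in cortex, without overlap, a difference of 0.47 ± 0.10 (1.38-fold, limma adjusted p = 0.0101). The test of the difference between genotypes gave an adjusted p of 1 for every member, so these effects are not shown to differ.

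The remaining Ntrk2 probe sets passed in neither genotype. Probe set 2, traced to the same source sequence as probe set 1, lay between 10.53 and 10.83 with tissue differences of 0.01 in APPsα-DM and 0.13 in APLP2-KO. Probe sets 6 and 7 were dim on every array, from 2.45 to 2.76 and from 4.95 to 5.53. Within each array, the signal of probe set 3 minus that of probe set 4 was 0.23, 0.28 and 0.19 in APPsα-DM hippocampus, 0.30, 0.34 and 0.33 in APLP2-KO hippocampus, -0.62, -0.72 and -0.67 in APPsα-DM cortex and -0.57, -0.60 and -0.38 in APLP2-KO cortex. This pair was chosen after the values were seen, for its opposite calls, so these values only show those calls array by array. Which Ntrk2 transcripts each probe set reads, full-length or truncated, was not analysed here. Of 12 astrocyte markers, cells known for truncated TrkB, 3 were higher and 1 lower in hippocampus in each genotype, and their part in the Ntrk2 values was not tested.

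**Figure D3:**
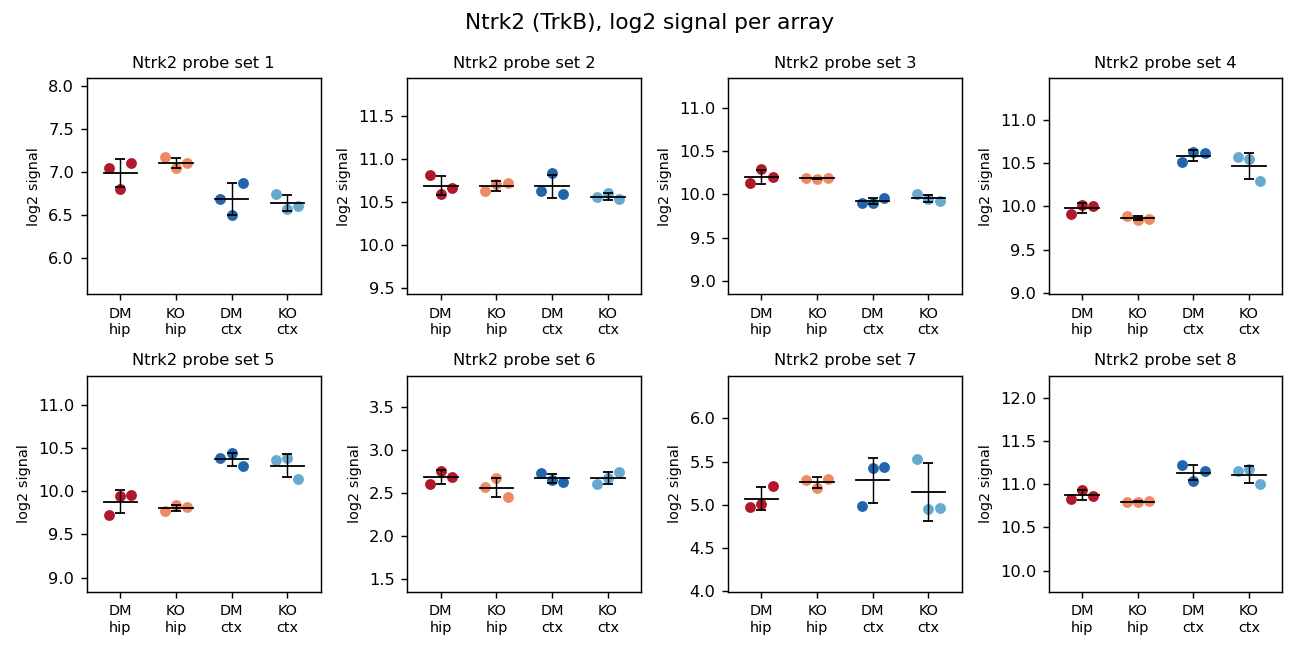
Log2 signal on each of the 12 arrays for the 8 Ntrk2 probe sets, by group as in the plot of the ligands, each panel with its own range on the vertical axis. Probe sets 4, 5 and 8 are lower and probe set 3 is higher on every hippocampus array than on every cortex array, and probe sets 6 and 7 stay under 6.

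Ntrk3, which encodes TrkC, the receptor of neurotrophin-3, was higher in hippocampus at probe sets 1 and 5 in both genotypes and at probe set 8 in APPsα-DM. Probe set 1 read 8.12, 8.18 and 8.13 in APPsα-DM hippocampus against 7.75, 7.19 and 7.71 in APPsα-DM cortex, and 7.96, 7.94 and 8.18 in APLP2-KO hippocampus against 7.43, 7.68 and 7.55 in APLP2-KO cortex. No hippocampus array was as low as a cortex array, and APPsα-DM cortex 2 was the lowest. The difference was 0.60 ± 0.13 in APPsα-DM (1.51-fold, limma adjusted p = 0.0104) and 0.48 ± 0.13 in APLP2-KO (1.39-fold, limma adjusted p = 0.0313). The APPsα-DM call stood under all 15 alternatives. The APLP2-KO call ended without cortex 1 (adjusted p = 0.113), cortex 3 (0.0792), hippocampus 1 (0.0539), hippocampus 2 (0.0546) or hippocampus 3 (0.124).

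Ntrk3 probe set 5 read 9.65, 9.84 and 9.66 in APPsα-DM hippocampus against 9.34, 9.35 and 9.43 in APPsα-DM cortex, and 9.53, 9.64 and 9.75 in APLP2-KO hippocampus against 9.42, 9.22 and 9.13 in APLP2-KO cortex. The tissues did not overlap in either genotype. The difference was 0.34 ± 0.09 in APPsα-DM (1.27-fold, limma adjusted p = 0.0265) and 0.38 ± 0.09 in APLP2-KO (1.30-fold, limma adjusted p = 0.0134). In APPsα-DM the call ended without cortex 1 (adjusted p = 0.0832), cortex 2 (0.0768), hippocampus 2 (0.0972) or hippocampus 3 (0.0517), and with the replicate number as a block (0.0505). In APLP2-KO it ended without cortex 2 (0.0510), cortex 3 (0.0592) or hippocampus 3 (0.0622), and without the Ttr-rich cortex arrays it ended in both genotypes (0.0725 in APPsα-DM and 0.0703 in APLP2-KO).

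Ntrk3 probe set 8 read 8.53, 9.08 and 8.69 in APPsα-DM hippocampus against 8.26, 8.12 and 8.40 in APPsα-DM cortex, a difference of 0.51 ± 0.14 (1.42-fold, limma adjusted p = 0.0334). In APLP2-KO it read 8.51, 8.57 and 8.90 in hippocampus against 8.33, 8.26 and 8.20 in cortex, and the difference of 0.40 ± 0.14 did not pass (limma adjusted p = 0.0871). The tissues did not overlap in either genotype. The APPsα-DM call ended without cortex 1 (adjusted p = 0.0853), cortex 2 (0.122), hippocampus 2 (0.106) or hippocampus 3 (0.0643), without the Ttr-rich cortex arrays (0.151) and with only the 6 arrays compared (0.0755).

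The other Ntrk3 probe sets did not pass in either genotype. Probe sets 2 and 3, traced to 1 source sequence, differed by 0.40 and 0.35 in APPsα-DM (adjusted p = 0.0917 and 0.0812) and by 0.21 and 0.20 in APLP2-KO. Probe set 4, dim between 3.68 and 4.26, differed by -0.25 in APPsα-DM (adjusted p = 0.0557) and by -0.08 in APLP2-KO. Probe sets 6 and 7 differed by -0.01 and 0.16 in APPsα-DM and by 0.06 and -0.04 in APLP2-KO.

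**Figure D4:**
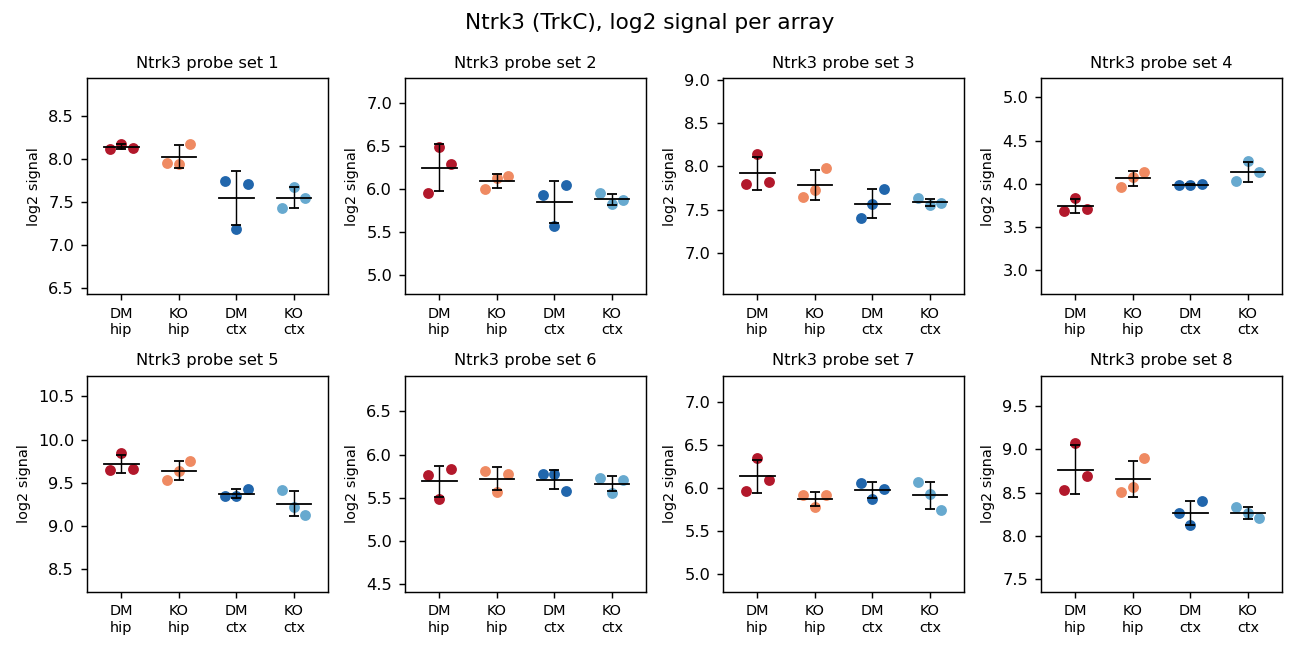
Log2 signal on each of the 12 arrays for the 8 Ntrk3 probe sets, by group as in the plot of the ligands, each panel with its own range on the vertical axis. Probe sets 1, 5 and 8 are higher on the hippocampus arrays than on the cortex arrays of the same genotype, and probe set 4 is dim with APPsα-DM hippocampus lowest.

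Ngfr encodes p75, a death domain receptor that binds all neurotrophins and is made in adult forebrain mainly by cholinergic neurons. No Ngfr probe set passed between the tissues. Probe set 3, the only one to reach a group mean of 6, read 6.24, 6.36 and 6.48 in APPsα-DM hippocampus, 6.42, 6.33 and 6.31 in APLP2-KO hippocampus, 6.38, 6.50 and 6.14 in APPsα-DM cortex and 6.50, 6.36 and 6.27 in APLP2-KO cortex. All 4 groups overlapped, with tissue differences of 0.02 ± 0.10 in APPsα-DM and -0.02 ± 0.10 in APLP2-KO. Probe sets 1 and 2 lay between 3.59 and 4.80 with differences of -0.11 to 0.01. Of 7 markers of basal forebrain cholinergic neurons, 4 were lower in hippocampus in APPsα-DM and 2 in APLP2-KO, and 0 were higher. Lhx8 and Isl1, transcription factors of these neurons, had the largest differences of the 7, -1.50 and -1.04 in APPsα-DM and -1.14 and -1.11 in APLP2-KO. Both were dim, with group means of 3.15 to 4.66 for Lhx8 and 4.53 to 5.65 for Isl1. Chat, their defining enzyme, had group means of 4.20 to 4.40 and did not pass. Ache, the brightest of the 7 at 7.82 to 8.02, differed by 0.15 in APPsα-DM and 0.05 in APLP2-KO and did not pass. The mean of the 7 centred markers was -0.36 to -0.19 in APPsα-DM hippocampus, -0.29 to -0.16 in APLP2-KO hippocampus, 0.13 to 0.50 in APPsα-DM cortex and 0.15 to 0.28 in APLP2-KO cortex, and its part in the Ngfr values was not tested.

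Sort1 encodes sortilin, the co-receptor that proneurotrophins bind together with p75 and a sorting receptor for BDNF in neurons. Its probe set 1 read 11.73, 11.87 and 11.77 in APPsα-DM hippocampus, 11.64, 11.70 and 11.78 in APLP2-KO hippocampus, 11.67, 11.53 and 11.60 in APPsα-DM cortex and 11.64, 11.74 and 11.57 in APLP2-KO cortex. The APPsα-DM hippocampus arrays lay above the APPsα-DM cortex arrays, while the APLP2-KO groups overlapped. The difference was 0.19 ± 0.07 in APPsα-DM (limma adjusted p = 0.129) and 0.06 ± 0.07 in APLP2-KO (limma adjusted p = 0.690), neither past the threshold. Probe sets 2 and 3, traced to the same source sequence as probe set 1, differed by 0.29 and 0.22 in APPsα-DM and by 0.39 and 0.27 in APLP2-KO, with adjusted p of 0.212 to 0.495.

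Between the genotypes, no neurotrophin or receptor probe set passed. The count was 0 of 25 in hippocampus, in cortex and for the average of both tissues, where 4 of 45037 probe sets (0.00888%) passed in each of these comparisons, and 0 of 25 for the difference between the tissues' genotype effects, where 0% passed. At an unadjusted p of 0.05, 2 members passed in hippocampus (4.11% of all probe sets did), 1 in cortex (4.50%) and 3 on average (4.03%), and 0 for the difference between tissues (3.79%). The median log2 difference, APPsα-DM minus APLP2-KO, was 0.07 in hippocampus, 0.00 in cortex and 0.05 on average, against -0.003, 0.004 and -0.001 over all probe sets. For the 18 probe sets with a group mean of at least 6, the single 95% intervals, which hold per probe set and not jointly, ran from -0.53 to 0.52 in hippocampus and from -0.47 to 0.59 in cortex. For the 7 dim ones the intervals describe the signal and bound no change of RNA.

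Bdnf probe set 1 had the largest genotype difference in cortex among the members. It averaged 8.27 ± 0.17 in APPsα-DM cortex and 7.97 ± 0.15 in APLP2-KO cortex (SD, n = 3 each), a difference of 0.30 ± 0.13 (SE) with an interval of 0.02 to 0.59 (unadjusted p = 0.0405 and adjusted p = 1, limma). In hippocampus it averaged 9.31 ± 0.21 in APPsα-DM and 9.08 ± 0.21 in APLP2-KO, a difference of 0.23 ± 0.13 with an interval of -0.06 to 0.52 (adjusted p = 1, limma). The arrays given above overlapped between genotypes in both tissues. For the averages of cortex and hippocampus of the same number, the difference was 0.27 ± 0.10 (unadjusted p = 0.0260 and adjusted p = 1, limma). These averages did not overlap between genotypes, which held for 4 members higher and 1 lower, where 9.13% of all probe sets did not overlap. They join arrays by number, which the labels do not tie to mice, so this separation depends on the numbering. Bdnf probe set 2, from the same source sequence, differed by 0.09 in hippocampus and 0.12 in cortex. Without the Ttr-rich cortex arrays, the cortex differences were 0.20 for Bdnf probe set 1 and -0.07 for probe set 2, neither past the threshold. All 10 striatal markers were above 0 in this cortex comparison, with a median of 0.23 and none past the threshold; their part in the Bdnf values was not tested.

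Ntrk3 probe set 4 had the smallest p among the members in hippocampus. This dim probe set read 3.68, 3.83 and 3.71 in APPsα-DM hippocampus against 3.96, 4.08 and 4.14 in APLP2-KO hippocampus, without overlap. The difference was -0.32 ± 0.08 with an interval of -0.49 to -0.15 (unadjusted p = 0.00123 and adjusted p = 0.988, limma), and it was -0.15 in cortex. Ntrk3 probe set 7 differed by 0.26 ± 0.11 in hippocampus (unadjusted p = 0.0285 and adjusted p = 1, limma) and by 0.06 in cortex. Neither passed, and Ntrk3 probe sets 1, 5 and 8 differed by 0.08 to 0.12 in hippocampus and by 0.00 to 0.11 in cortex.

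The groups of the genotypes did not overlap for 4 members in hippocampus, 3 higher (Ntrk2 probe sets 4 and 8 and Ntrk3 probe set 7) and 1 lower (Ntrk3 probe set 4), where 9.88% of all probe sets did not overlap. In cortex this held for 1 member, Ntrk3 probe set 4, lower in APPsα-DM, where the share of all probe sets was 8.73%. All 12 choroid plexus markers were above 0 in the hippocampus comparison, with a median of 1.10 and none past the threshold; the mean of the centred markers was -0.55 to 2.19 in APPsα-DM hippocampus and -0.80 to 1.14 in APLP2-KO hippocampus. With that score as a covariate, the hippocampal differences of Bdnf probe sets 1 and 2 were 0.23 and 0.10, and without the score 0.23 and 0.09. The part of choroid plexus in the genotype values was not tested.

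**Figure D5:**
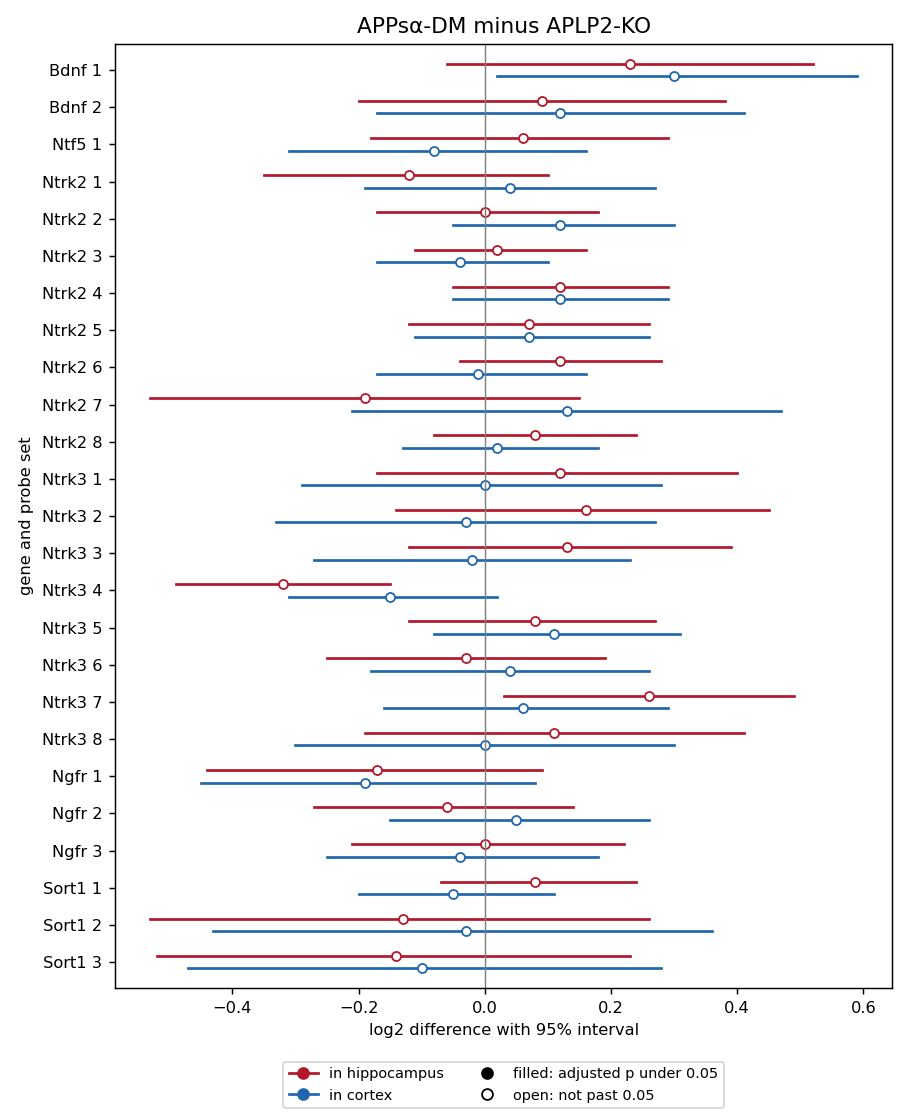
Log2 difference, APPsα-DM minus APLP2-KO, of the 25 probe sets in hippocampus and cortex, with 95% intervals; open points did not pass an adjusted p of 0.05. No point is filled, and the interval bounds lie between -0.53 and 0.59.

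The rest of the neurotrophin pathway was described by 6 gene lists with 1 probe set per gene, the one with the highest mean. Over all genes taken this way, 13.9% passed between the tissues in APPsα-DM (6.59% higher and 7.34% lower in hippocampus) and 16.5% in APLP2-KO (6.78% higher and 9.70% lower). Among 9 other receptors and co-receptors, 0 were higher and 2 lower in both genotypes: Sorcs1, which encodes a receptor of the sortilin family, by -1.61 in APPsα-DM and -1.80 in APLP2-KO (limma adjusted p = 5.71e-06 and 1.91e-06), and Lingo1, which encodes a partner of p75 in the Nogo receptor complex, by -0.35 and -0.51 (limma adjusted p = 0.0223 and 0.00162). Among 16 genes of proneurotrophin processing, 2 were higher and 0 lower in both genotypes: Plat, the tissue plasminogen activator that makes the plasmin which cleaves proBDNF, by 0.52 in APPsα-DM and 0.50 in APLP2-KO, and Pcsk5, a proprotein convertase, by 0.54 and 0.49.

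Of 12 genes that act below p75, 0 were higher and 2 lower in both genotypes, the JNK genes Mapk9 (-0.29 in APPsα-DM and -0.39 in APLP2-KO) and Mapk8 (-0.30 and -0.28). With the probe set of lowest identifier in place of the brightest, 0 of the 12 passed in APPsα-DM and 1 in APLP2-KO. Of 38 genes of the Trk adaptors and kinase cascade, 1 was higher and 7 lower in APPsα-DM, and 2 were higher and 6 lower in APLP2-KO. Rps6ka3, which encodes the kinase RSK2, fell by 0.88 in APPsα-DM and by 1.00 in APLP2-KO. Pik3r1, a regulatory subunit of PI3 kinase, differed by -0.76 and -0.81, and the kinase gene Akt2 by -0.54 and -0.71. The median of this list was -0.05 in APPsα-DM and -0.11 in APLP2-KO, against -0.019 and -0.010 over all genes.

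Of 15 transcription factors and cofactors known to act on Bdnf promoters, 0 were higher in hippocampus, and 3 were lower in APPsα-DM and 4 in APLP2-KO. Mef2c, an activity-regulated factor, differed by -1.38 in APPsα-DM and -1.58 in APLP2-KO (limma adjusted p = 1.24e-06 and 3.82e-07), Crem, a relative of CREB, by -0.41 and -0.39, and Nr3c1, the glucocorticoid receptor, by -0.40 and -0.38. Of 32 genes that BDNF induces in cultured neurons, 4 were higher and 7 lower in APPsα-DM, and 4 were higher and 8 lower in APLP2-KO. Their median log2 difference was -0.27 in APPsα-DM and -0.35 in APLP2-KO. Penk, the proenkephalin gene, which striatal neurons express strongly, differed by -2.32 in APPsα-DM and -2.50 in APLP2-KO, the immediate early gene Egr1 by -1.55 and -0.90, and Nptx2, a synaptic pentraxin gene, by -0.80 and -1.10. The rises were led by Nr4a2 (1.08 in APPsα-DM and 1.40 in APLP2-KO), a nuclear receptor gene, Dusp4 (1.12 in both), a MAP kinase phosphatase gene, and Rasl11a (0.75 and 0.64), a small GTPase gene.

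Between the genotypes, no gene of the 6 lists passed in hippocampus, in cortex or on average, where 0.0110% of all genes passed. The smallest p among them on average belonged to Penk, which differed by 0.46 in hippocampus and 0.28 in cortex, and to Dusp5, a MAP kinase phosphatase gene, at -0.34 and -0.31 (unadjusted p = 0.00297 and 0.00361, adjusted p = 1 for both, limma). The immediate early gene Arc had the largest difference of those named, -0.90 ± 0.51 (SE) in hippocampus and -1.45 ± 0.51 in cortex, with an adjusted p of 1 in both.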

How the data were processed

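Total RNA of prefrontal cortex and hippocampus was labelled with biotin and hybridised to 1 Affymetrix array per sample. The deposited values are log2 signals; per the submitters' processing notes they were made with RMA and the affy package, of versions not given in the sources used here. They ranged from 1.80 to 14.36 with array medians of 5.86 to 5.91, and RMA shrinks small differences of dim probe sets. Of 45101 rows, 64 control probe sets were left out. The platform annotation names 1 gene for 34945 probe sets, several for 932 and none for 9160.

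From these values, limma 3.58.1 in R 4.3.3 fitted 4 group means over 12 arrays (lmFit, eBayes, 8 residual and 4.25 prior degrees of freedom). Contrasts were hippocampus minus cortex per genotype, APPsα-DM minus APLP2-KO per tissue and the difference of these. An average genotype effect was fitted on the means of same-numbered cortex and hippocampus arrays, 3 against 3. P-values were two-sided and adjusted by Benjamini-Hochberg over 45037 probe sets, also for the gene lists, at 0.05. The fit was tested on simulated data. Precision is limited by the few arrays, with a median SE of 0.0938 for the genotype contrasts within a tissue. With 3 mice and 6 arrays per genotype the tissues share mice, but labels do not tie array numbers to mice. Tissue contrasts therefore treat the arrays as independent, only the average effect joins them by number, and p-values measure the spread between these samples.

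Named were all member probe sets. From each list came the genes past the threshold between genotypes, or up to 4 with the smallest p, and, between tissues, the 3 genes that rose most and the 3 that fell most past the threshold in both genotypes. Members, lists and markers were chosen with earlier results of these data known. Alternatives were leaving out single arrays, the replicate number as a block, only the 6 arrays compared, a filter on a group mean of 6, median centring, a repeated quantile normalisation, a variance trend and a choroid plexus score as a covariate. Leaving out 2 cortex arrays with Ttr above 12 was added after seeing the data.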

Additional observations from a re-analysis of the deposited data

How the results depend on the processing

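The count of member probe sets past the threshold between tissues stayed at 6 to 10 in APPsα-DM and 6 to 9 in APLP2-KO over all alternatives. It was 6 to 10 and 6 to 8 on leaving out single arrays. Over all 45037 probe sets, leaving out single arrays gave 3340 to 4333 calls in APPsα-DM and 4060 to 5017 in APLP2-KO. Bdnf probe sets 1 and 2 and Ntrk2 probe sets 4 and 5 passed under every alternative in both genotypes. So did Ntrk2 probe set 3 and Ntrk3 probe set 1 in APPsα-DM, and Ntrk2 probe set 1 in APLP2-KO. No member passed between genotypes under any alternative, and no called difference changed sign. Over all pairs of a probe set and an alternative, a tissue call ended in 19 pairs in each genotype, and a call was gained in 11 pairs, all in APPsα-DM; the cause was not tested. The Ttr setting, chosen after seeing the data, left 7 member calls in each genotype. Over all 45037 probe sets it left 3621 calls in APPsα-DM and 4899 in APLP2-KO.

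The deviations of same-numbered arrays of a genotype correlated at 0.0193 to 0.1551 (6 pairs), those of other pairs at -0.1399 to 0.036 (12 pairs), and the labels do not tie numbers to mice, so numbers did not enter the tissue contrasts and served only to form the average genotype effect. The 3 APLP2-KO pairs lay at 0.1093 to 0.1551. With the replicate number as a fixed block, 9 and 8 members passed in APPsα-DM and APLP2-KO, and with a random block (correlation 0.074) 10 and 9. Over all 45037 probe sets, 4530 and 5275 passed with the fixed block and 5329 and 6192 with the random block. The block gave 0 members between genotypes. With the probe set of lowest identifier, calls in APPsα-DM and APLP2-KO were 1 and 1 for the other receptors and 1 and 1 for processing. They were 7 and 7 for the Trk cascade, 2 and 2 for the transcription factors and cofactors and 10 and 10 for the BDNF-induced genes. Ntf5, Ntrk2 probe sets 6 and 7 and other probe sets with no group mean of 6 (7 of 25) are dim, which limits what they can show.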

Other observations

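Bdnf was the only member whose brightest probe set differed by at least 1 log2 unit between the tissues in both genotypes. The 3 genes nearest to it, by the root mean squared difference of gene-centred log2 values over the 12 arrays among 18193 genes, were Vit (0.150), an extracellular matrix gene, Dock9 (0.166), which encodes an activator of the GTPase CDC42, and Dusp4 (0.179), a MAP kinase phosphatase gene. Their log2 differences, hippocampus minus cortex, in APPsα-DM and APLP2-KO were 1.23 and 1.17 for Vit, 0.93 and 1.00 for Dock9 and 1.12 and 1.12 for Dusp4. Vit was dim, with group means of 4.26 to 5.66, which limits what it can show. The ranking follows the tissue difference and gives no test.

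Probe sets of 1 gene called in opposite directions, as for Ntrk2, were uncommon. Of 728 genes with at least 2 probe sets past the threshold in both genotypes, 7 (0.962%) had a rise and a fall in both. The other 6, counted and named after the values were seen, were Camk2a, Dtna, Ensa, Gprc5b, Rtn4 and Syne1. The share pools genes with few and with many probe sets, and Ntrk2 has 8. Camk2a, which encodes a subunit of the kinase CaMKII, had probe sets at 0.74 and -0.83 in APPsα-DM and 0.67 and -0.90 in APLP2-KO. Rtn4, which encodes Nogo, a ligand of the receptor complex that holds p75, had probe sets at 0.36 and -0.84 in APPsα-DM and 0.45 and -0.70 in APLP2-KO. Which transcripts these probe sets read was not analysed here.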
